A study of Mus musculus with 30 samples.

Results

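The mitochondrial ribosomal protein genes were described in kidney and skeletal muscle of Kif3aΔTub mice and wild-type (WT) mice. They were taken as every gene whose symbol is Mrpl or Mrps followed by a number, among probe sets annotated to 1 symbol. This gave 76 of the 17782 genes measured, 47 named Mrpl for the large subunit and 29 named Mrps for the small subunit. Every one of the 76 symbols matched RefSeq. RefSeq lists 78 protein-coding genes with such symbols, and Mrpl30 and Mrpl53 were not analysed here.

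The groups were Kif3aΔTub mice given sActRIIB-Fc, Kif3aΔTub mice given PBS, WT mice given sActRIIB-Fc and WT mice given PBS, all aged 6 weeks. The labels give the mutant genotype as Kif3aKSPCre. Ksp-Cre is driven by the promoter of a cadherin of kidney tubule cells, and Kif3a is a motor subunit needed to build primary cilia, so the deletion is aimed at tubule cells and not at muscle. sActRIIB-Fc, here the trap, is the ligand-binding part of activin receptor IIB joined to an antibody tail, which takes up activins and their relatives. Per the labels it was given intraperitoneally at 10 mg/kg once a week for 2 doses. Each tissue had 3 arrays of WT mice on PBS and 4 of each other group, 30 arrays of 15 animals in all, with 1 array for each tissue of an animal.

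Values are the authors' normalized log2 intensities of Affymetrix Mouse Genome 430 2.0 probe sets, so a difference of 1 is a doubling. An intensity is no count of molecules, and precision is set by how many arrays a group has. Each gene was read from its brightest probe set in the tissue. Changes are log2 differences ± standard error from limma, fitted over all genes of a tissue, and calls required a p under 0.05 after Benjamini-Hochberg adjustment over all genes. Arrays of a group correlated across genes at 0.976 or more. Median intensities of the arrays lay between 6.09 and 6.24 in kidney and between 5.94 and 6.06 in muscle. The animal numbers mark separate animals. The muscle-fibre markers, such as Acta1 and Ckm, and the proximal tubule markers, such as Lrp2 and Slc34a1, fell where the labels put them: all 8 proximal tubule markers were higher in WT kidney than in WT muscle, by a median of 7.62, and all 8 muscle-fibre markers were lower, by a median of 9.26. Kif3a was lower in untreated mutant kidneys than in WT kidneys by 0.50 ± 0.15 on the log2 scale (adjusted p = 0.011) and was not called in muscle (-0.15 ± 0.18, adjusted p = 0.658). Which part of the gene its probe sets read, and so whether they bear on the deletion, is not known here.

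Mitochondria carry their own ribosome, which translates the few respiratory chain subunits that mitochondrial DNA encodes. Its RNA is made in the organelle, while its proteins are encoded in the nucleus, made in the cytosol and imported. Many of the proteins descend from bacterial ribosomal proteins, and others were added in the mitochondrial lineage. Kidney tubules and muscle fibres both depend on mitochondria for their energy. Of the 76 genes, 16 encode small-subunit proteins with a bacterial counterpart, 10 small-subunit proteins particular to mitochondria, 29 large-subunit proteins with a bacterial counterpart and 20 large-subunit proteins particular to mitochondria. The last group includes Mrps30 and Mrps18a, which were named for the small subunit but sit in the large one. Mrps36 is not a ribosomal protein and belongs to the 2-oxoglutarate dehydrogenase complex.

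The genes' mean log2 intensities ran between 7.07 for Mrps27 and 11.07 for Mrpl51 in kidney, with a median of 9.33, against 6.82 over all genes. In muscle they ran between 8.07 for Mrps27 and 12.26 for Mrpl42, with a median of 9.84, against 6.47 over all genes. All 76 stood above the median gene in both tissues, although probe sets of different genes do not compare as levels.

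Promoters of genes that moved together were set beside each other, from RefSeq's windows of 250 bases before to 50 after a transcript start (GRCm38.p6). Windows were found for 67 of the 76 genes. They were searched on both strands for CCGGAAGT of the ETS factor GABP, AANATGGCG of YY1 and the 10-letter motif of nuclear respiratory factor 1 (NRF1), which is seen in capitals in Mrpl39 and may have any base where that promoter has the A between GCGC and TGCGC. These are factors known to act on nuclear genes for mitochondria. At least 1 of these was present for 32 of the 67 genes (47.8%), against 17.9% of 14176 genes on the arrays with a window. A gene with several windows was counted if any of them held the letters. The NRF1 letters were in 17.9% of these members and 8.68% of array genes, the GABP letters in 17.9% and 6.7%, and the YY1 letters in 16.4% and 4.31%. The letters CACGTG of the MYC E-box were in 7.46% and 10.3%, and TCAAGGTCA, bound by oestrogen-related receptors, in 0 of 67 and 0.381%. No matches of different motifs overlapped in the members' windows. The median base content was 58.7% G and C in the members' windows, which bears on GC-rich letters. It was 52.7% in all 32851 windows of RefSeq, which include genes not on the arrays, unlike the motif shares above. A match is a description of the letters and not a site in use. Mrpl39, Mrps22 and Mrps18a are shown because, for NRF1, GABP and YY1 in that order, each had the largest fall in mutant kidney among genes with the letters in the printed stretch (150 bases before to 30 after the start). Mrpl33 and Mrpl23 are shown because they moved the other way there. Capitals mark the matched letters, as found on either strand.
Mrpl39: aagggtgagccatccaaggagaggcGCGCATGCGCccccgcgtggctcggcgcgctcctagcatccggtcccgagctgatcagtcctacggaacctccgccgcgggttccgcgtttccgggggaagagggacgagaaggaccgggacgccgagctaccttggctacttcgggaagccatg
Mrps22: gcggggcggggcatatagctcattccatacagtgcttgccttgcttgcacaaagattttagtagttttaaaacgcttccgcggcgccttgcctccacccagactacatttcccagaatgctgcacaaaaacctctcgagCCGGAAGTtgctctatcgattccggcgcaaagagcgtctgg
Mrps18a: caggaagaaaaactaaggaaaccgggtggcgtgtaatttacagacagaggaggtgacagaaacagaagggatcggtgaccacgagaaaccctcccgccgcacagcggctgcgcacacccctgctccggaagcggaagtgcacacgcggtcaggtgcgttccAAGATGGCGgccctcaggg
Mrpl33: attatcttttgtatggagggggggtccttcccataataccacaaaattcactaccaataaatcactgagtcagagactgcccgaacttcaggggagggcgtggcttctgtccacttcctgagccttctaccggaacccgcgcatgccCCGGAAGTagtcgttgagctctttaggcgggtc
Mrpl23: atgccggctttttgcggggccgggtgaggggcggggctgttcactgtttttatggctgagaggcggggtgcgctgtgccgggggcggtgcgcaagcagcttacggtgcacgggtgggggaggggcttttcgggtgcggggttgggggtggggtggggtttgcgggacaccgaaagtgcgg
The stretches lie at chr16:84735215-84735394 (minus strand), chr9:98601650-98601829 (minus strand), chr17:46110854-46111033 (plus strand), chr5:31613801-31613980 (plus strand) and chr7:142532882-142533061 (plus strand). The first capital stands 125 bases before the start in Mrpl39, 11 before it in Mrps22, 3 before it in Mrpl33 and 12 bases into the transcript in Mrps18a, while Mrpl23 holds none of the 3 motifs. Of the members lower in mutant kidney, 29 of 60 with a window held at least 1 of the 3 motifs (48.3%).

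In untreated mutant kidneys, mitochondrial ribosomal protein transcripts were lower almost throughout. Of 76 genes, 68 were called lower than in WT and 2 higher, with a median change of -0.57, or 67.4% of the WT level. Of all genes of the kidney, 26.7% were called lower and 24.9% higher, 51.6% in either direction, and the median change was -0.08. In 71 of 76 genes every mutant array lay below every WT array. The share of all genes separated in this way is not given here, so that count does not single out the members. The median over the members was 8.97, 9.15, 8.96 and 9.04 on the mutant arrays, against 9.67, 9.61 and 9.66 on the WT arrays. In bulk tissue, fewer cells of a type and less RNA per cell cannot be told apart.

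**Figure D1:**
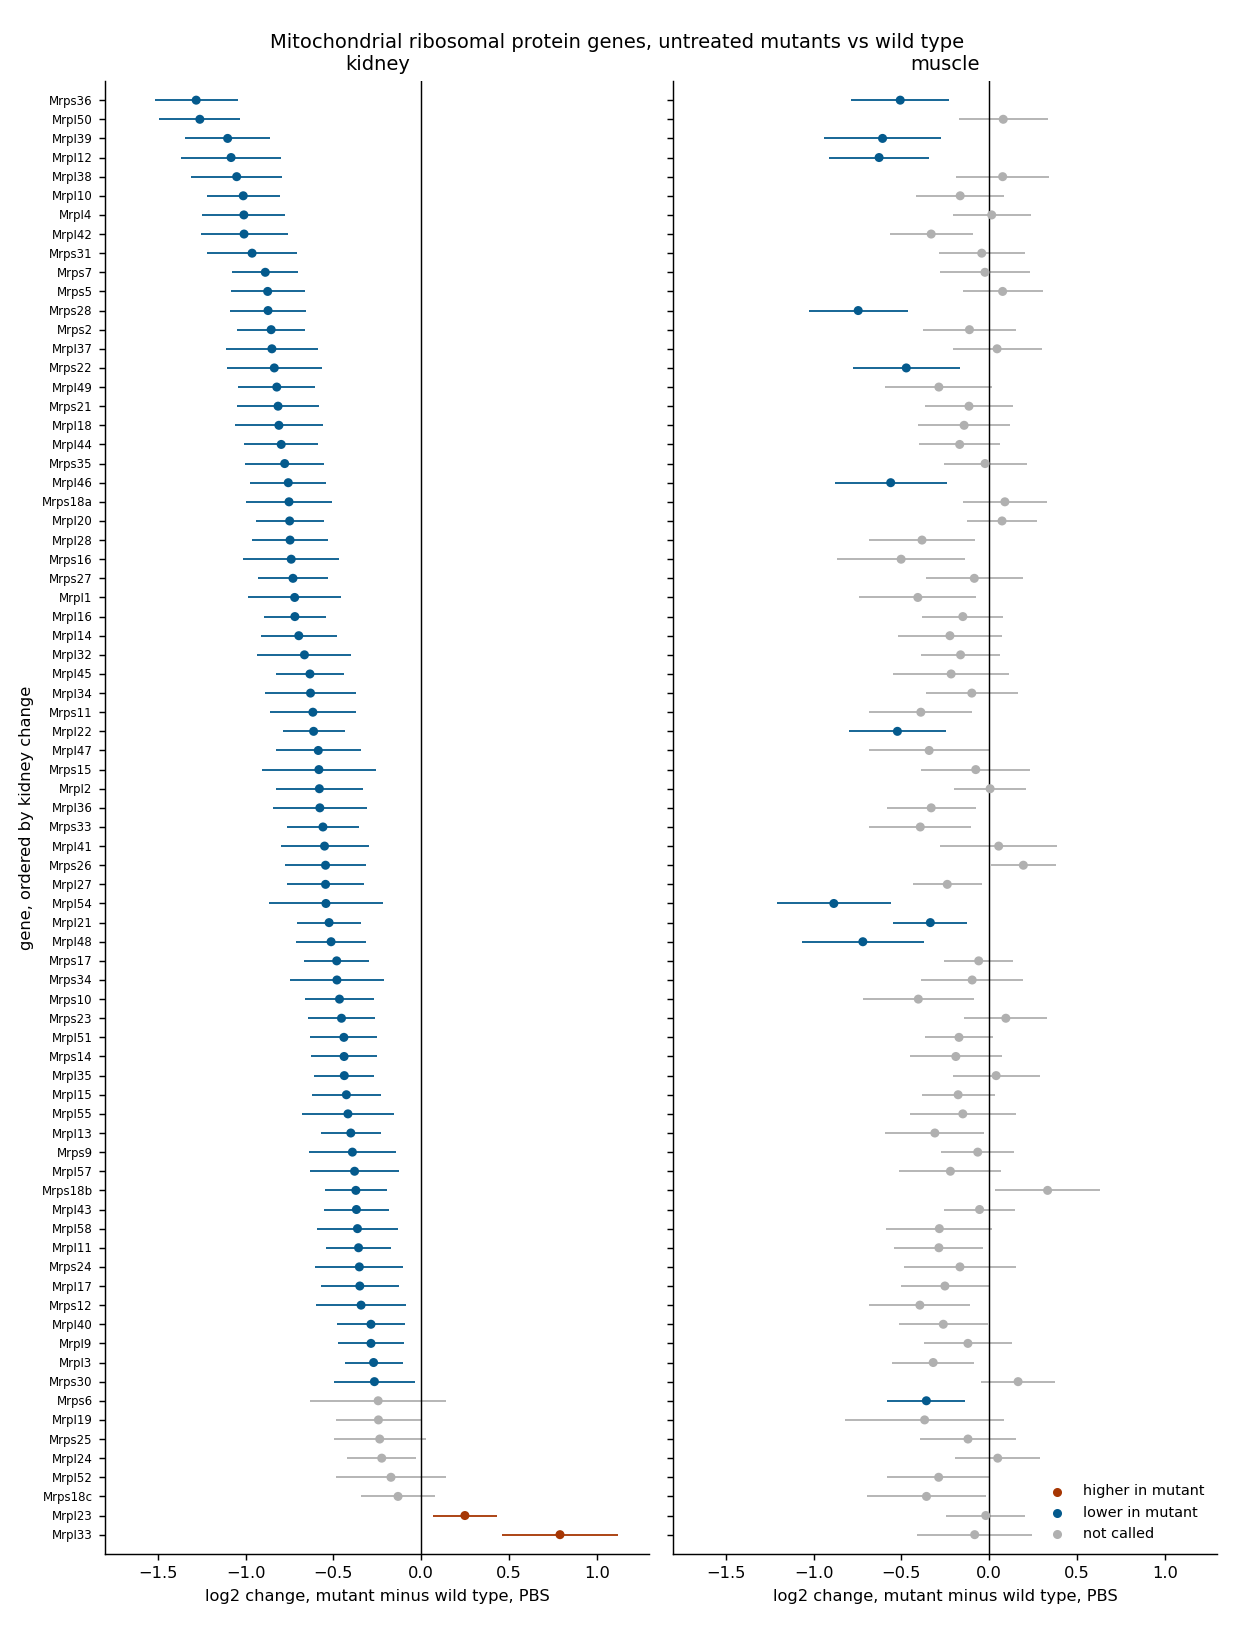
Log2 change of each of the 76 genes between untreated mutants and WT (x axis, points, with the 95% interval as lines) in kidney (left) and muscle (right), ordered by the kidney change on the y axis. In kidney 68 points are called lower and 2 higher, while in muscle 11 are called lower and most intervals cross 0.

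Mrps36 had the largest fall of the 76, although it is a subunit of a dehydrogenase complex of the citric acid cycle. Its log2 intensities were 8.79, 9.23, 8.98 and 8.81 in untreated mutant kidneys, against 10.30, 10.11 and 10.29 in WT kidneys. The groups were well apart, and the mutants stood at 41.1% of the WT level (-1.28 ± 0.11, adjusted p = 2.06e-07).

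Among proteins of the large subunit, Mrpl50, one of those particular to mitochondria, fell most. It had 8.93, 9.28, 8.90 and 9.04 in untreated mutant kidneys, against 10.34, 10.25 and 10.31 in WT kidneys. Every mutant array was lower than every WT array, and the mutant level was 41.7% of WT (-1.26 ± 0.11, adjusted p = 1.95e-07). Mrpl39, whose promoter holds the NRF1 letters, had 9.43, 9.85, 9.87 and 9.66 in untreated mutant kidneys, against 10.74, 10.80 and 10.89 in WT kidneys (-1.10 ± 0.11, adjusted p = 1.15e-06). Mrpl38 (-1.05 ± 0.12), Mrpl42 (-1.01 ± 0.12) and Mrpl37 (-0.85 ± 0.12), which also have no bacterial counterpart, fell with no overlap of the groups.

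All 3 genes of the stalk region, where translation factors are recruited, fell. Mrpl12, which forms the flexible stalk, had 9.75, 10.28, 9.90 and 9.79 in untreated mutant kidneys, against 11.08, 10.97 and 10.99 in WT kidneys. Mrpl10 anchors Mrpl12 to the ribosome and had 8.67, 8.85, 8.70 and 8.77 in untreated mutant kidneys, against 9.78, 9.70 and 9.80 in WT kidneys. Both fell with no overlap, to 47.2% of WT for Mrpl12 (-1.08 ± 0.13, adjusted p = 7.23e-06) and 49.5% for Mrpl10 (-1.01 ± 0.10, adjusted p = 5.84e-07). Mrpl11, of the same factor-binding region, fell to 78.1% (-0.36 ± 0.09, adjusted p = 0.00298). Mrpl4, at the wall of the exit tunnel in the bacterial ribosome, fell to 49.7% (-1.01 ± 0.11), and Mrpl45, which holds the tunnel exit to the inner membrane, to 64.5% (-0.63 ± 0.09).

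The classes of subunit did not stand far apart in kidney. Of the small-subunit genes, 14 of 16 with a bacterial counterpart fell (median -0.53) and 9 of 10 particular to mitochondria (median -0.55). Of the large-subunit genes, 25 of 29 with a bacterial counterpart fell and 2 rose (median -0.58), and 19 of 20 particular to mitochondria fell (median -0.59). Mrps5 (-0.87 ± 0.10), Mrps28 (-0.87 ± 0.10), Mrps16 (-0.74 ± 0.13) and Mrps22 (-0.84 ± 0.13) were among the small-subunit falls. Mrps16 and Mrps22 are genes of inherited mitochondrial disease in humans. So are Mrpl44 (-0.80 ± 0.10) and Mrpl3, whose fall was the smaller of these (-0.27 ± 0.08, adjusted p = 0.00858). Mrps12, of the decoding centre, fell by 0.34 ± 0.12 (adjusted p = 0.0259), and Mrpl58, a peptidyl-tRNA hydrolase built into the large subunit, fell by 0.36 ± 0.11 (adjusted p = 0.0105).

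The paralogues Mrps18a, Mrps18b and Mrps18c differed in value. Mrps18a, of the large subunit, fell to 59.3% of WT (-0.75 ± 0.11, adjusted p = 5.66e-05), and Mrps18b, of the small subunit, to 77.3% (-0.37 ± 0.08, adjusted p = 0.00147). Mrps18c, the one with a bacterial counterpart, had 10.03, 10.06, 9.80 and 10.16 in untreated mutant kidneys, against 10.20, 10.10 and 10.13 in WT kidneys. Its groups overlapped and it was not called (-0.13 ± 0.10, adjusted p = 0.279). The differences between the paralogues were not tested. The other 5 uncalled genes were Mrps6, Mrpl19, Mrps25, Mrpl24 and Mrpl52, listed here after their values were seen, with changes between -0.24 and -0.17. Mrps30 passed narrowly (-0.27 ± 0.11, adjusted p = 0.0498) and lost its call in 7 of 16 alternative settings, and Mrps12 in 5.

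Mrpl33 and Mrpl23 went the other way in kidney. Mrpl33, a small protein of the large subunit, had 10.57, 10.12, 10.37 and 10.56 in untreated mutant kidneys, against 9.66, 9.54 and 9.65 in WT kidneys. Every mutant array was above every WT array, at 173% of the WT level (0.79 ± 0.15, adjusted p = 0.000536). This rests on the brighter of its probe sets, with a mean of 10.12, while the other one, at a mean of 3.93, changed by -0.41, and the mean of both gave 0.19 and was not called. Mrpl23, of the tunnel exit, had 9.61, 9.63, 9.5 and 9.61 in untreated mutant kidneys, against 9.35, 9.31 and 9.36 in WT kidneys (0.25 ± 0.09, adjusted p = 0.0244). Mrpl23 lost its call in 6 of 16 alternative settings.

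Over all 15 kidney arrays Mrps35 had the highest Pearson's r with the median of the other members (0.988), a value that holds the gap between genotypes. Within the genotypes it had 0.915 over 8 mutant arrays and 0.88 over 7 WT arrays, where other genes stood higher over WT arrays. In muscle Mrpl57 had the highest over 15 arrays (0.957), with 0.941 over mutant arrays and 0.976 over WT arrays. These correlations are a description, as the arrays share groups. Each gene was left out of the median it was set against.

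Probe sets other than the one used mostly gave the same direction. Of 69 other probe sets of 36 genes, 57 were lower in untreated mutant kidneys, and of the 29 with a mean above 7, 26 were lower. For Mrpl52 the probe set used changed by -0.17, and the other ones by 0.51 and 0.54. For Mrpl38 the one used changed by -1.05, and dimmer ones, with means of 5.66 and 5.46, by 0.12 and -0.22.

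**Figure D2:**
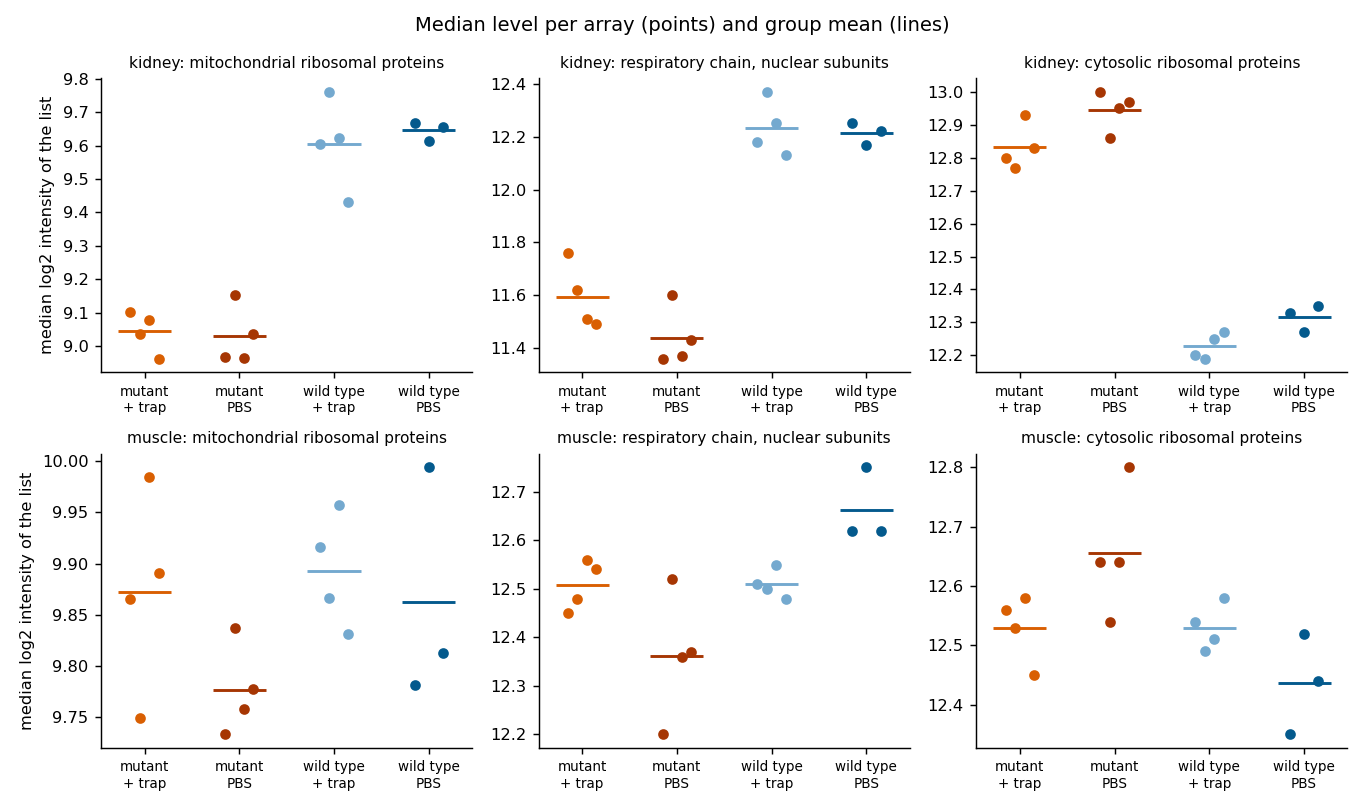
Median log2 intensity on each array (points) with the group mean (lines) for 3 gene lists (columns) in kidney (top) and muscle (bottom), by group on the x axis; the y axes do not start at 0 and differ between panels. In kidney the mutant arrays lie below the WT arrays for mitochondrial ribosomal proteins and the respiratory chain, and above them for cytosolic ribosomal proteins, while in muscle the member medians of the groups overlap.

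Other genes of the same machinery fell in untreated mutant kidneys as well. Of ribosomal subunits with other names, 3 of 4 were called lower, led by Ptcd3 (-0.93 ± 0.10) and Gadd45gip1 (-0.62 ± 0.12). Assembly and rRNA modification factors were lower in 19 of 24 (median -0.43), with Mettl15, an rRNA methyltransferase (-1.41 ± 0.16), and Fastkd2, which binds the mitochondrial 16S rRNA (-0.94 ± 0.10). Translation factors were lower in 13 of 14 (median -0.87), including the elongation factor Gfm1 (-1.48 ± 0.10) and Gfm2, which acts in ribosome recycling (-1.35 ± 0.14). Mitochondrial aminoacyl-tRNA synthetases and the amidotransferase that completes glutaminyl-tRNA were lower in 16 of 19 (median -0.58), with Gatb (-1.73 ± 0.18) and Yars2 (-1.28 ± 0.16) at the head. Genes of mitochondrial DNA and its transcription were lower in 8 of 11 (median -0.63), with the topoisomerase Top1mt (-1.37 ± 0.12) and the elongation factor Tefm (-1.12 ± 0.13), and with Tfam, which packages mitochondrial DNA (-0.63 ± 0.13).

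The cytosolic ribosome moved in the opposite direction. Of 44 cytosolic ribosomal protein genes, 38 were called higher in untreated mutant kidneys and 1 lower (median 0.62), with Rpl35 at 1.0 ± 0.12, while Rpl3l, a form made in muscle, was the one that fell (-1.29 ± 0.25). The nuclear subunits of the respiratory chain were lower in 74 of 81 and higher in 1, Cox7a2l (median -0.68), with Cox7a1 (-1.96 ± 0.25) and Ndufs1 (-1.72 ± 0.13) falling most. The array medians were 12.86 to 13.00 in untreated mutant kidneys and 12.27 to 12.35 in WT kidneys for the cytosolic list. For the respiratory chain they were 11.36 to 11.60 in untreated mutant kidneys and 12.17 to 12.25 in WT kidneys.

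**Figure D3:**
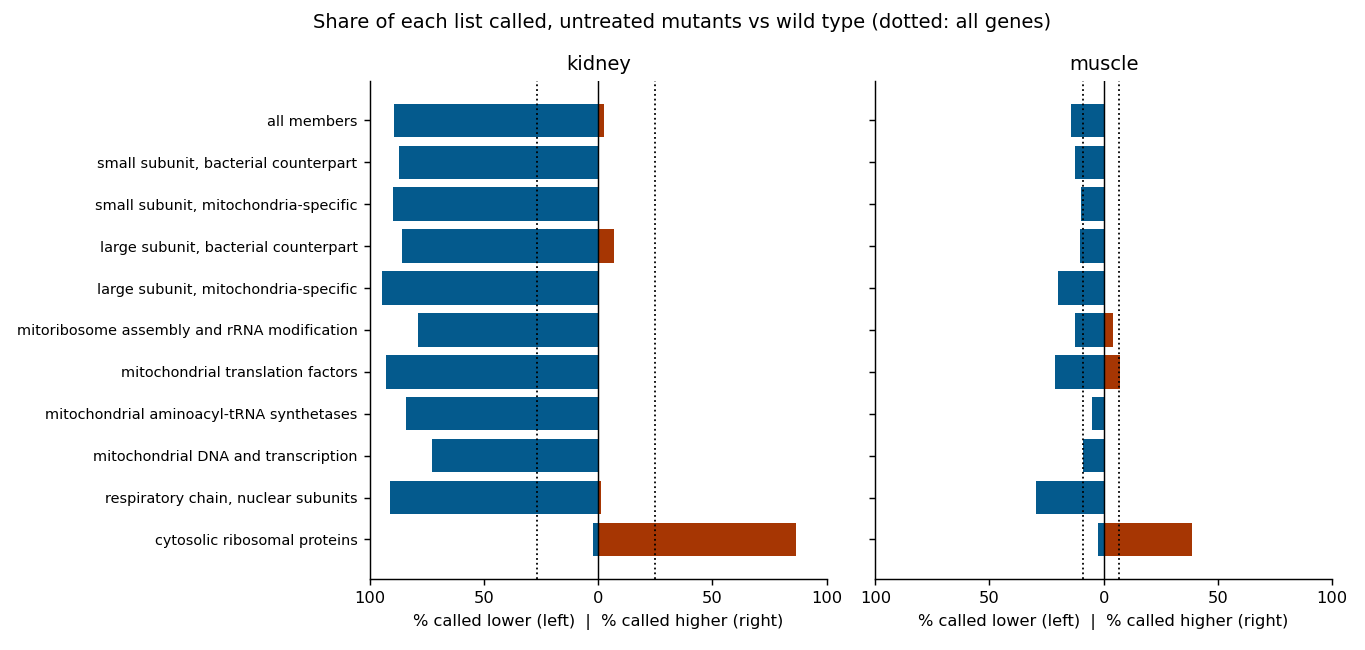
Percent of each gene list called lower (left of 0, blue) and higher (right of 0, red) in untreated mutants against WT, in kidney and muscle, with dotted lines at the shares over all genes. In kidney every mitochondrial list lies far to the left of the 26.7% line and cytosolic ribosomal proteins far to the right of the 24.9% line.

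Regulators of mitochondrial genes were split in untreated mutant kidneys, with 4 of 10 higher and 5 lower. Over all kidney genes the calls were split as well, with 24.9% higher and 26.7% lower. Myc, which drives ribosome genes and growth, was higher by 2.10 ± 0.21, and Pprc1, a coactivator related to PGC-1, by 0.89 ± 0.17. Yy1 (0.64 ± 0.15) and Nrf1 (0.45 ± 0.12) were also higher. The coactivator genes Perm1 (-1.31 ± 0.16), Ppargc1b (-0.65 ± 0.17) and Ppargc1a (-0.41 ± 0.13) were lower, as were the GABP subunit gene Gabpb1 (-0.98 ± 0.12) and Esrra, an oestrogen-related receptor (-0.96 ± 0.12). Gabpa, the DNA-binding subunit of GABP, was not called (-0.19 ± 0.19, adjusted p = 0.422).

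Markers of kidney cell types moved with genotype too. All 8 proximal tubule markers were called lower (median -2.88), and the log2 of their summed intensity was 12.80 to 13.98 in untreated mutant kidneys and 15.98 to 16.02 in WT kidneys. All 6 markers of Henle's loop and the distal tubule were lower, with a summed level of 13.81 to 14.27 in untreated mutant kidneys and 15.24 to 15.35 in WT kidneys. All 8 macrophage and myeloid markers were higher, at 13.98 to 14.42 in untreated mutant kidneys and 10.72 to 11 in WT kidneys. Fibroblast and matrix markers were higher in 6 of 6, at 13.66 to 14.31 in untreated mutant kidneys and 11.51 to 11.95 in WT kidneys, and collecting duct markers in 5 of 5, at 13.04 to 14.02 in untreated mutant kidneys and 11.23 to 11.47 in WT kidneys. Endothelial markers were called in 1 of 4, at 10.07 to 10.31 in untreated mutant kidneys and 10.04 to 10.30 in WT kidneys. Of the 8 muscle-fibre markers 1 was called lower, Pvalb (-4.32 ± 0.21), which distal tubule cells also express and which is in that list too. No marker is at 0, since an array gives some intensity for every probe set. The part of these shifts in the members' falls was not tested. A sign of RNA quality, the 3 prime minus 5 prime difference of the actin controls, was 0.76 to 1.37 in untreated mutant kidneys and 1.4 to 1.5 in WT kidneys.

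None of the 76 genes was called with the trap in mutant kidneys. In mutant kidneys with the trap against those without it, limma called 0 of 76, with 8 at an unadjusted p under 0.05 and a median change of 0.06, while 2.4% of all genes were called, 1.07% as higher and 1.33% as lower. The array medians of the members were 9.10, 9.04, 9.08 and 8.96 in mutant kidneys with the trap and 8.97, 9.15, 8.96 and 9.04 in untreated mutant kidneys, and the groups overlapped. Mrpl38, of the large subunit, had 8.07, 8.32, 8.22 and 8.11 in mutant kidneys with the trap, against 7.70, 8.0, 7.75 and 7.76 in untreated mutant kidneys. Its groups did not overlap, but it was not called (0.38 ± 0.11, adjusted p = 0.0986). It was called with array weights and without replicate 2 of the untreated mutants, and Mrps6 was called without replicate 4 of the treated mutants, giving 1 call each time. Alongside, 2 of 8 proximal tubule markers were called higher with the trap. Their summed level was 14.46 to 14.69 in mutant kidneys with the trap and 12.80 to 13.98 in untreated mutant kidneys. In the same order, markers of Henle's loop and the distal tubule had 14.29 to 14.54 and 13.81 to 14.27. Endothelial markers had 10.33 to 10.73 and 10.07 to 10.31, and the groups overlapped for the other marker lists. The 18S signal was 12.43 to 13.14 with the trap and 13.12 to 13.63 without it.

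Between mutant and WT kidneys that both received the trap, 62 genes were called lower and 1 higher, with a median of -0.49. Over all genes 46.4% were called, 24.2% as lower and 22.2% as higher. The higher gene was again Mrpl33, with 10.27, 10.63, 10.47 and 10.33 in mutant kidneys with the trap, against 9.48, 10.16, 10.14 and 9.92 in WT kidneys with the trap (0.50 ± 0.14, adjusted p = 0.00981). It lost this call in 2 of 17 alternative settings, at 0.04 when its probe sets were averaged and at 0.42 with the actin covariate. Mrps36 fell most here too (-0.96 ± 0.10), followed by Mrpl12 (-0.85 ± 0.12), Mrpl49 (-0.82 ± 0.10) and Mrpl39 (-0.81 ± 0.10). Mutant kidneys with the trap against WT kidneys on PBS had 66 genes lower and 1 higher (median -0.53), where 47.4% of all genes were called, 25.3% as lower and 22.1% as higher. Mrpl50 (-1.11 ± 0.11), Mrps36 (-1.03 ± 0.11), Mrps5 (-0.91 ± 0.10) and Mrps31 (-0.89 ± 0.12) fell most in that comparison, which shares arrays with those above. The 18S signal was 12.43 to 13.14 in mutant kidneys with the trap and 13.28 to 13.33 in WT kidneys on PBS. With it as a covariate 46 genes were called lower and 1 higher. The share of all genes called with that covariate is not given here, so this count does not single out the members.

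In WT kidneys the trap changed 0 of 76 genes by limma, with 9 at an unadjusted p under 0.05, and 0.877% of all genes were called, 0.551% as lower and 0.326% as higher. The test of whether the trap acted differently in the genotypes called 0 of 76, with 9 at an unadjusted p under 0.05 and 1.38% of all genes called, 0.664% as higher and 0.72% as lower. Mrpl50 lay nearest to the threshold in both. It had 9.98, 9.59, 9.91 and 9.86 in WT kidneys with the trap, against 10.34, 10.25 and 10.31 in WT kidneys on PBS. Those groups did not overlap, and the adjusted p was 0.0611 for the trap in WT (-0.47 ± 0.11) and 0.0558 for the difference between genotypes (0.61 ± 0.15). Both were called with array weights and without replicate 1 of the WT mice with the trap, and the difference between genotypes also without replicate 2 of the untreated mutants, each giving 1 call.

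**Figure D4:**
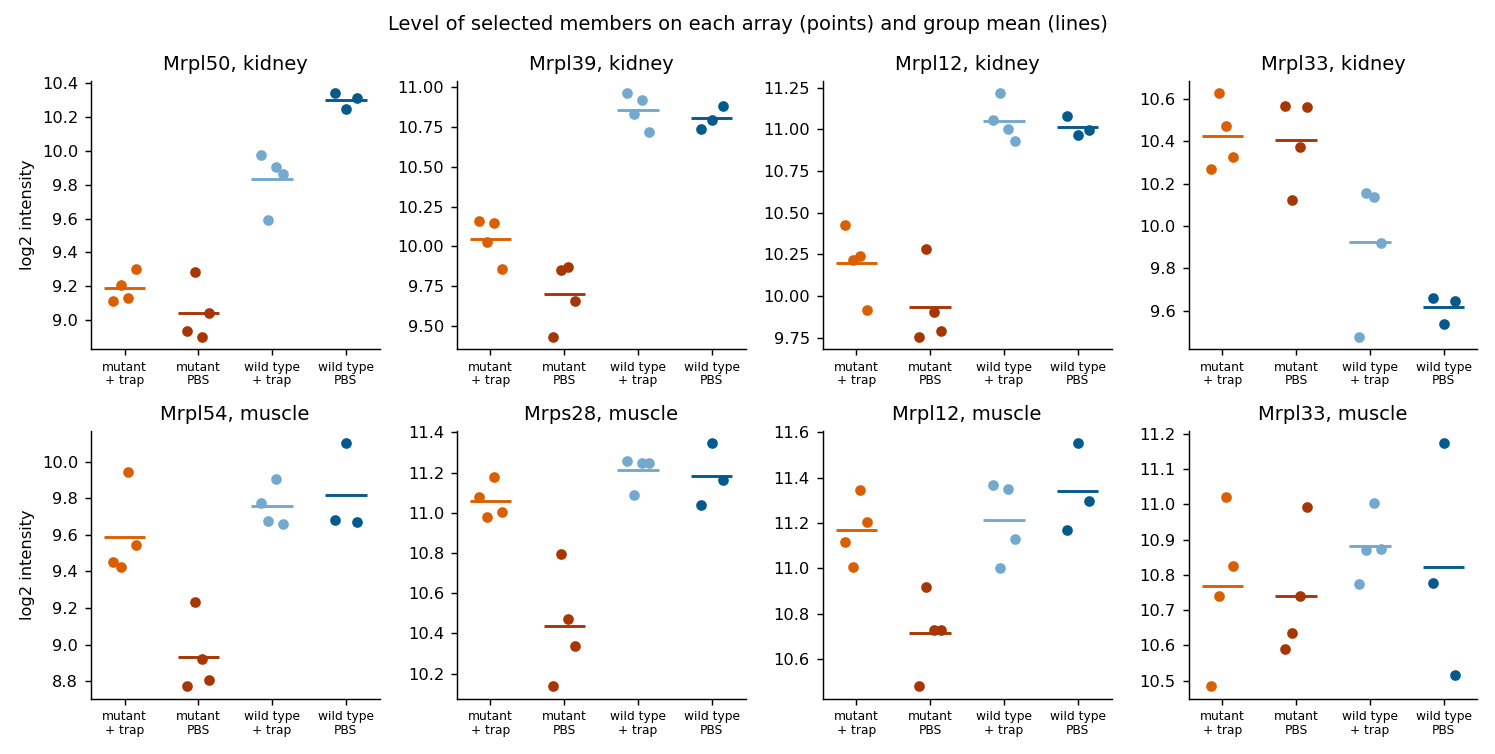
Log2 intensity of selected genes on each array (points) and group means (lines), in kidney (top) and muscle (bottom), by group on the x axis; the y axes do not start at 0. In kidney Mrpl50, Mrpl39 and Mrpl12 are lower on all 8 mutant arrays than on any WT array, Mrpl33 overlaps between all mutant and all WT arrays, while in muscle Mrpl54, Mrps28 and Mrpl12 are low on the 4 untreated mutant arrays.

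In muscle of untreated mutants the change was smaller and reached fewer genes. Of 76 genes, 11 were called lower than in WT and 0 higher, with 29 at an unadjusted p under 0.05 and a median change of -0.17, or 88.9% of WT. Over all muscle genes 16% were called, 9.04% as lower and 6.93% as higher, with a median of -0.05. The array medians of the members were 9.73, 9.84, 9.76 and 9.78 in untreated mutant muscle, against 9.78, 9.99 and 9.81 in WT muscle, and these overlapped.

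Mrpl54, a large-subunit protein particular to mitochondria, fell most in muscle. It had 8.77, 9.24, 8.92 and 8.81 in untreated mutant muscle, against 9.68, 10.10 and 9.67 in WT muscle. The groups did not overlap, and the mutants were at 54.1% of WT (-0.89 ± 0.15, adjusted p = 0.00114). Mrps28 had 10.14, 10.80, 10.47 and 10.34 in untreated mutant muscle, against 11.04, 11.35 and 11.16 in WT muscle (-0.75 ± 0.13, adjusted p = 0.00145). Mrpl48, another large-subunit protein particular to mitochondria, had 9.16, 10.09, 9.82 and 9.82 in untreated mutant muscle, against 10.31, 10.5 and 10.53 in WT muscle (-0.72 ± 0.16, adjusted p = 0.00719). In these 3 genes replicate 2 of the untreated mutants lay nearest to WT. Mrpl12 of the stalk was at 64.7% of WT (-0.63 ± 0.13, adjusted p = 0.00518), with no overlap. The other falls were Mrpl39 (-0.61 ± 0.16), Mrpl46 (-0.56 ± 0.15), Mrpl22 (-0.52 ± 0.13), Mrps36 (-0.51 ± 0.13), Mrps22 (-0.47 ± 0.14), Mrps6 (-0.36 ± 0.11) and Mrpl21 (-0.34 ± 0.10), and the groups overlapped for Mrpl46 and Mrps36.

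Several genes called in kidney were not called in muscle. Mrpl50 had 9.77, 9.5, 9.55 and 9.46 in untreated mutant muscle, against 9.58, 9.55 and 9.35 in WT muscle (0.08 ± 0.12, adjusted p = 0.72). Mrpl33 had 10.59, 10.63, 10.74 and 10.99 in untreated mutant muscle, against 10.78, 11.17 and 10.52 in WT muscle (-0.08 ± 0.15). Mrps12 (-0.40 ± 0.14, adjusted p = 0.0588), Mrps16 (-0.50 ± 0.17, adjusted p = 0.0578) and Mrpl3 (-0.32 ± 0.11, adjusted p = 0.0592) stood close to the threshold with groups that did not overlap. Mrps18b, by contrast, was at 0.33 ± 0.14 (adjusted p = 0.126).

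The muscle calls moved with technical measures and with the settings. The signal of the 18S rRNA control was 12.98 to 13.49 in untreated mutant muscle and 13.53 to 13.62 in WT muscle, and the 3 prime minus 5 prime actin signal was -0.06 to 0.14 in untreated mutant muscle and 0.16 to 0.18 in WT muscle. With the 18S signal as a covariate 0 genes were called, with the actin signal 3, and when the compared groups were fitted alone 3. The leading genes' changes kept their sign over all 16 settings, between -0.99 and -0.49 for Mrpl54, -0.87 and -0.60 for Mrps28 and -0.71 and -0.51 for Mrpl12, and with the 18S covariate they were -0.86, -0.60 and -0.67 in the same order. Without replicate 2 of the untreated mutants 20 were called, and without replicate 2 or 3 of WT on PBS 4 and 5. The shares of all genes called in these settings are not given here, so the counts do not single out the members. Fibroblast and matrix markers were lower in 4 of 6, with a summed level of 12.34 to 12.93 in untreated mutant muscle and 14.18 to 14.27 in WT muscle, and macrophage markers in 3 of 8, at 10.23 to 12.06 in untreated mutant muscle and 11.28 to 11.62 in WT muscle. The summed muscle-fibre markers were 17.01 to 17.07 in untreated mutant muscle and 17.06 to 17.10 in WT muscle. The part of the other cell types in the members' changes was not tested.

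Calls in the other lists were fewer in untreated mutant muscle, where 9.04% of all genes were called lower and 6.93% higher. Respiratory chain subunits were lower in 24 of 81 and higher in 0 (median -0.23), with Ndufb2 (-0.70 ± 0.16) and Ndufs4 (-0.69 ± 0.16), subunits of complex I, in front. Cytosolic ribosomal proteins were higher in 17 of 44 and lower in 1 (median 0.24), with Rps25 at 0.59 ± 0.16 and Rps4l at -1.0 ± 0.20. Translation factors were lower in 3 of 14 and higher in 1, with the initiation factor Mtif3 (-0.63 ± 0.15) and the recycling factor Mrrf (-0.60 ± 0.11). Assembly factors lay near the shares over all genes, lower in 3 of 24 and higher in 1. Those lower included the methyltransferase Trmt2b (-0.87 ± 0.23) and the rRNA methyltransferase Mrm2 (-0.65 ± 0.19). Ptcd3 (-0.49 ± 0.13), Gatb (-0.49 ± 0.14) and Tefm (-0.53 ± 0.11) were the calls in their lists. Of the 10 regulators, Pprc1 (0.86 ± 0.16), Nrf1 (0.72 ± 0.16), Yy1 (0.59 ± 0.13) and Ppargc1a (0.54 ± 0.15) were higher and Esrra was lower (-0.37 ± 0.11).

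In mutant muscle the trap moved about the same share of these genes as of all genes. Against untreated mutants, 5 of 76 genes were called higher and 0 lower, with a median of 0.14, where 6.33% of all genes were called, 4.18% as higher and 2.15% as lower. The 5 make up 6.58% of the members. All 5 were among the 11 that were lower in untreated mutants, but both comparisons use the same untreated mutant arrays. Mrpl54 had 9.45, 9.42, 9.94 and 9.55 in mutant muscle with the trap, against 8.77, 9.24, 8.92 and 8.81 in untreated mutant muscle (0.66 ± 0.14, adjusted p = 0.013). Mrpl48 had 10.51, 10.23, 10.37 and 10.30 in mutant muscle with the trap, against 9.16, 10.09, 9.82 and 9.82 in untreated mutant muscle (0.63 ± 0.15, adjusted p = 0.0232). Every treated array was above every untreated one in both genes.

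Mrps28 had 11.08, 10.98, 11.18 and 11.01 in mutant muscle with the trap, against 10.14, 10.80, 10.47 and 10.34 in untreated mutant muscle (0.62 ± 0.12, adjusted p = 0.00916). Mrps22 (0.47 ± 0.13, adjusted p = 0.0482) and Mrpl12 (0.45 ± 0.12, adjusted p = 0.0406) were nearer to the threshold. In all 3 genes the treated arrays again lay above the untreated ones. With the 18S signal or the actin signal as a covariate, or in a fit of only the compared groups, 0 genes were called, and without replicate 2 of the untreated mutants 12. With the 18S covariate the changes were 0.63 for Mrpl54, 0.48 for Mrps28 and 0.50 for Mrpl12. Each other array of the untreated mutants left 3 calls when it was taken out, and replicates 1, 3 and 4 of the treated mutants left 2, 2 and 3. Shares of all genes called in these settings are not given here either. The 18S signal was 13.45 to 13.72 in mutant muscle with the trap and 12.98 to 13.49 in untreated mutant muscle, and the fibroblast and matrix markers had a summed level of 13.20 to 13.61 in mutant muscle with the trap and 12.34 to 12.93 in untreated mutant muscle.

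**Figure D5:**
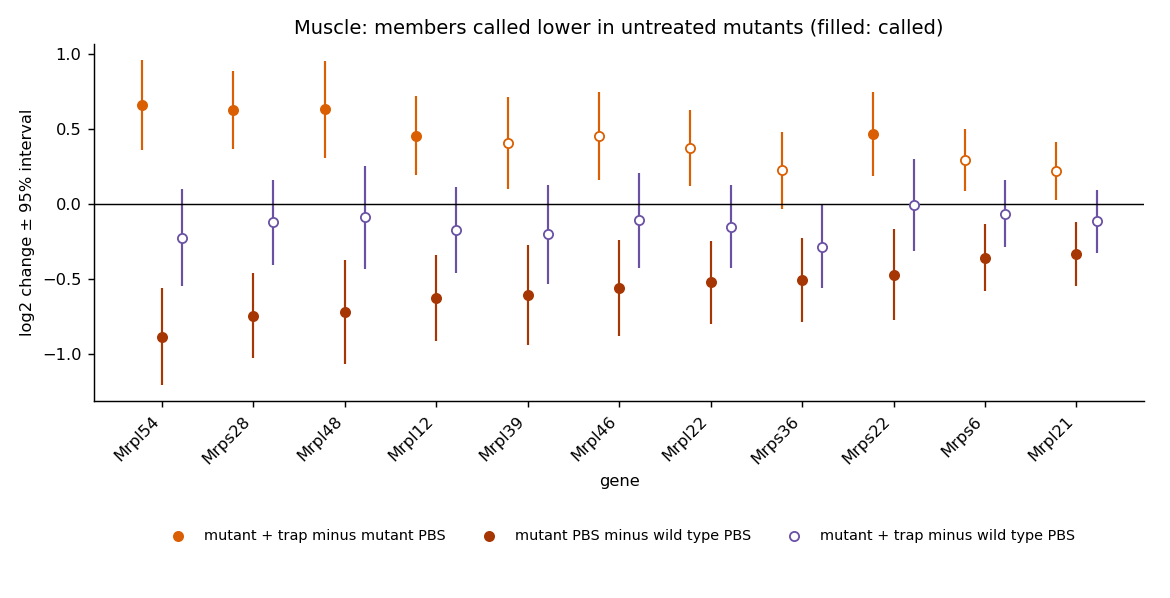
Log2 change with its 95% interval (y axis) of the 11 genes called lower in untreated mutant muscle (x axis), for mutants with the trap against untreated mutants, for untreated mutants against WT on PBS, and for mutants with the trap against WT on PBS; filled points were called. The first 2 comparisons share the untreated mutant arrays, and the third has 0 calls, with the interval of Mrps36 as the single one that lies below 0.

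Mutant muscle with the trap against WT muscle on PBS had 0 of 76 called by limma, with 1 at an unadjusted p under 0.05, where 0.973% of all genes were called, 0.827% as lower and 0.146% as higher. Mrpl54 had 9.45 to 9.94 in mutant muscle with the trap and 9.67 to 10.10 in WT muscle on PBS (-0.23 ± 0.15, adjusted p = 0.636). Between mutant and WT muscle that both received the trap, 0 were called, 0 at an unadjusted p under 0.05, with 1.66% of all genes called, 1.51% as lower and 0.146% as higher. In WT muscle the trap changed 0 of 76, with 2 at an unadjusted p under 0.05 and 0.0619% of all genes called, 0.0337% as higher and 0.0281% as lower. The test of a different trap effect in the genotypes called 0, with 12 at an unadjusted p under 0.05 and 0.169% of all genes called, 0.152% as higher and 0.0169% as lower. Mrpl54 had 0.72 ± 0.21 in that test (adjusted p = 0.154). Without replicate 2 of the untreated mutants that test called 2 genes.

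Other lists had few calls with the trap in mutant muscle, where 4.18% of all genes were called higher and 2.15% lower. The respiratory chain list did not exceed the share called higher. Ndufb2 (0.60 ± 0.14) and Ndufc1 (0.38 ± 0.11) were the 2 of 81 respiratory chain genes called higher, and Tefm (0.53 ± 0.10), Mrrf (0.50 ± 0.11), Mtrf1l (0.46 ± 0.12) and Ptcd3 (0.45 ± 0.12) were called higher in their lists. The last genes are named after their values were seen. Ppargc1a, the PGC-1α gene, was called lower (-0.66 ± 0.14, adjusted p = 0.0125).

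To compare the tissues, the 30 arrays went into a single limma fit that treated the animal as random. Kidney and muscle of untreated WT mice differed in most of these genes, with 50 of 76 lower in kidney, 9 higher and a median of -0.43. The tissues differed in 64.6% of all genes, 36.1% as lower in kidney and 28.5% as higher. Mrpl23 had the largest difference downwards, at 9.34 ± 0.03 in WT kidney and 11.05 ± 0.08 in WT muscle (SD, n = 3 each), or -1.71 ± 0.09 (adjusted p = 3.19e-15). Mrps28 (-1.64 ± 0.12), Mrpl42 (-1.36 ± 0.11) and Mrpl15 (-1.35 ± 0.09) followed. Mrps6 was the reverse, at 10.89 ± 0.10 in WT kidney and 9.03 ± 0.11 in WT muscle (SD, n = 3 each), a difference of 1.86 ± 0.15, and Mrpl50 (0.81 ± 0.12), Mrpl20 (0.80 ± 0.09) and Mrpl10 (0.69 ± 0.11) were also higher in kidney.

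The genotype effect itself differed between the tissues for 35 of 76 genes, and for 34 of them it was more negative in kidney. Over all genes 37.2% differed, 17.5% as more negative in kidney and 19.7% as more positive. Mrpl50 differed most (-1.34 ± 0.15, adjusted p = 6.24e-08), with Mrpl38 (-1.13 ± 0.17), Mrpl4 (-1.02 ± 0.14) and Mrps5 (-0.95 ± 0.13) next. Mrpl38 kept its call in all 20 alternative settings, at values between -1.27 and -0.38. Mrpl33 was the single gene with a more positive effect in kidney (0.87 ± 0.21, adjusted p = 0.00179). For Mrps28 the difference was not called (-0.13 ± 0.16, adjusted p = 0.583). Of the 11 genes called lower in muscle, 10 were also called lower in kidney, and Mrps6 was the other one. Array medians differed by 0.145 in that contrast, so the members' median was -0.36 as deposited and -0.51 with each array centred on its median.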

How the data were processed

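Kidney and muscle RNA of 15 mice was measured on 30 Affymetrix Mouse Genome 430 2.0 arrays. The values are the authors' deposited normalized log2 intensities; how they were normalized is not stated. Per the labels' protocols, RNA was extracted with QIAZOL from snap-frozen tissue. Of 35088 probe sets, 31563 had 1 symbol, 825 several and 2700 none listed. For each gene the probe set with the highest mean in the tissue was used, over all arrays for comparisons of tissues. No filter or scaling was added.

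Each tissue was fitted with limma 3.58.1 in R 4.3.3, with 4 group means, and Benjamini-Hochberg adjustment over 17782 genes. Comparisons of tissues used duplicateCorrelation with the animal as block (consensus correlation 0.0749), since animal numbers in the titles tie the tissues together. The steps were tested on simulated data with 200 genes changed. For the kidney genotype comparison the fit found 36% of genes shifted by a log2 of 0.5 and 90% of those shifted by 1, against 18% and 77% in muscle. With nothing changed 0 calls were made. In the data 51.6% of kidney genes and 16% of muscle genes were called for genotype under PBS, far more than the simulation changed. The shares found therefore do not carry over to the real comparisons.

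The members, the gene lists and the alternatives were chosen with earlier results of these data known. Named genes are the largest called changes of each comparison (up to 8 each way for genotype under PBS, otherwise up to 4) plus genes named for their role. Promoter windows are from RefSeq. Plots used Python 3.11.15 and matplotlib 3.10.9. The alternatives were another probe set rule, centring, quantile normalization, array weights, brighter genes, compared groups alone, 18S and actin covariates, blocks and leaving out each array.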

Additional observations from a re-analysis of the deposited data

Results flagged for a closer look

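Of 210 groups of 4 arrays tested, over 34 named genes and the median of the members, 10 had a sample far from the other ones by Dixon's ratio, and chance gives about 1 in 20. In untreated mutant muscle, replicate 1 was low for Mrps18c (9.80, other arrays 10.44 to 10.53), Mrpl58 (8.99, other arrays 9.48 to 9.58) and Mrps31 (9.12, other arrays 9.53 to 9.57). In the same group Mrpl20 was low in replicate 2 (9.70, other arrays 9.80 to 9.81), Mrps18b was low in replicate 3 (9.37, other arrays 9.70 to 9.75) and Mrps18a was high in replicate 4 (10.40, other arrays 10.26). In WT muscle with the trap, Mrps28 was low in replicate 2 (11.09, other arrays 11.25 to 11.26). In untreated mutant kidney, Mrps31 was high in replicate 2 (8.29, other arrays 7.97 to 7.98). In WT kidney with the trap, replicate 4 was low for Mrpl46 (9.33, other arrays 9.59 to 9.63) and Mrpl49 (8.88, other arrays 9.10 to 9.11).

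The genotype effect under PBS differed between kidney and muscle for 35 of the 76 genes, by the test of the difference itself in limma. Over all genes 37.2% differed, 17.5% as more negative in kidney and 19.7% as more positive. Among the named genes the kidney effect was more negative for Mrpl50 (-1.34), Mrpl38 (-1.13), Mrpl4 (-1.02), Mrps5 (-0.95), Mrps31 (-0.92), Mrpl37 (-0.90) and Mrpl10 (-0.85). The same held for Mrps18a (-0.84), Mrpl20 (-0.82), Mrps36 (-0.77), Mrps18b (-0.70), Mrpl42 (-0.68) and Mrpl49 (-0.54). Mrpl39 (-0.49), Mrpl44 (-0.44) and Mrps30 (-0.43) completed them, and Mrpl33 had the opposite sign (0.87).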

How the results depend on the processing

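Counts of called genes stayed within 1.5 times under every alternative run for genotype in kidney (with PBS, with the trap, and treated mutants against WT on PBS) and for both comparisons of tissues. Of the 70 genes called for genotype in untreated kidney, 56 were called in every alternative and 14 lost the call in at least 1. In muscle, 11 genes were called for genotype under PBS, with 0 under the 18S covariate, 3 under the actin covariate, 3 with only the compared groups, 17 with array weights (16 lower, 1 higher), 17 with quantile normalization and 20 among genes above the median level. Leaving out 1 array gave 4 to 20. For the trap in mutant muscle, 5 genes were called, with 0 under either covariate or with only the compared groups, 3 with the mean of all probe sets or median centring, and 11 with array weights or genes above the median level. Leaving out 1 array gave 2 to 12. The interaction in muscle gave 0 to 2 when 1 array was left out. In kidney, 1 gene was called instead of 0 for the interaction (array weights, genes above the median level, quantile normalization), for the trap in mutants (array weights) and for the trap in WT (array weights), and leaving out 1 array gave 0 to 1 in each. Shares of all genes called are not given for the alternatives, so these counts do not single out the members. The cause was not tested. Signs turned only with the mean of all probe sets: Mrpl52 in kidney under PBS was 0.29, Mrpl1 in kidney against muscle -0.56, Mrps26 there -0.11, and the tissue difference of the genotype effect for Mrpl3 -0.39.

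Replicate numbers do not pair animals within a tissue (correlations of same-numbered deviations from -0.243 to 0.342). With the replicate block, genotype under PBS had 69 calls in kidney and 10 in muscle and the trap in mutant muscle had 4, and no count moved by over 1.5 times. Tissues of 1 animal correlated from -0.0895 to 0.306. Without the animal block 35 genes differed in genotype effect between tissues, with it as a fixed term 36. For the block settings, too, shares of all genes called are not given, so these counts do not single out the members.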
